A study of Mus musculus with 40 samples.

Results

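The comparison described here sets 5 mammary gland libraries from estrogen-treated mice against 5 from control mice, all taken 60 h after treatment began, out of 40 libraries in the series. They were chosen by their labels alone, and all 10 are described across the whole gene table. The mice of both groups were Balb/cJ, were ovariectomised at 21 d of age and recovered for 7 d, so the control gland also lacked ovarian hormones. The treated mice then drank water with 200 nM estrogen, and both groups ate the same defined control diet (AIN 93G based). Each library came from the part of 1 inguinal gland between the teat and the site of the lymph node, which had been cut out. The tissue was whole gland, in which fat cells, vessels, nerves, immune cells and an epithelial tree are read together, so a difference in RNA per cell and a difference in the number of cells of a type cannot be told apart in these bulk samples. The labels do not say whether every library of a group came from its own mouse, so p-values measure only the spread between samples. For the gene fits this spread was estimated together with the other groups of the same deposited table, labelled Control_108h and CLA_108h. The labels give each library a number. The numbers of all 5 treated libraries lie above those of all 5 controls, and the labels do not say what the number stands for, so anything that goes with it cannot be told apart from estrogen.

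Estrogen acts mainly through the estrogen receptor, a transcription factor that binds DNA directly or through other factors when it holds the hormone. In the mammary gland the receptor sits in some of the luminal cells that line the ducts and in stromal cells. After removal of the ovaries the ductal tree is small and quiet, and estrogen brings back growth of the ducts, largely through signals such as amphiregulin that receptor-bearing cells send to their neighbours. Levels are given as CPM, the reads of a gene scaled to the same library size by edgeR, with TMM scaling, which adjusts for a few genes that take up a large part of a library. Group means carry the SD over 5 libraries each. Fold changes are log2 values, estrogen minus control, and a value after a gene's name in parentheses is this log2 fold change. The SE was worked back from the F statistic of edgeR's quasi-likelihood test, as the size of the log2 fold change over the square root of F. It is approximate, above all where a group is near 0 CPM. A gene is said to rise or fall where its Benjamini-Hochberg adjusted p over all tested genes was under 0.05.

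The 10 libraries held 29831097 to 40026800 counts with estrogen and 30916709 to 35571140 counts in controls. The first principal component of the tested genes held 35.4% of their variance, and all 5 estrogen libraries were positive on it and all 5 controls negative. A pair of libraries stood apart. Estrogen replicate 5 held 646 CPM summed over 21 skin and hair genes, against 13.9 to 18.1 CPM in the other estrogen libraries and 13.1 to 43.7 CPM in controls. Its 18 skeletal muscle genes summed to 361 CPM, against 166 to 225 CPM in the other estrogen libraries and 168 to 204 CPM in controls. Control replicate 2 held 3180 CPM over 26 interferon-induced genes, against 452 to 584 CPM with estrogen and 529 to 729 CPM in the other controls. Many of the counts of gene groups below were smaller without these libraries or without another one, and the smaller counts are given beside them. The defining markers of the tissue were present in every library: Adipoq, which encodes the fat cell hormone adiponectin, was between 1124 and 1518 CPM with estrogen and between 1236 and 1357 CPM in controls, and Epcam, an epithelial surface gene, was above 0 in all 10.

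Of 17248 genes tested, 1119 were called, which is 6.49%. Estrogen raised 702 of them (4.07% of the tested genes) and lowered 417 (2.42%). At an unadjusted edgeR p under 0.05 there were 3968 of the 17248 genes. DESeq2, an alternative fit, called 1086 higher and 792 lower. List counts given below by unadjusted p or by DESeq2 are to be read beside these larger shares. The 2 directions differed in the level of their genes, and the size of the changes went with the level. Genes that rose were mostly of low level and moved far: their median level over the 10 libraries was 6.72 CPM, their median log2 fold change was 0.93, and 318 of them rose by 1 or more on the log2 scale and 111 by 2 or more. Genes that fell were of high level and moved little, with a median level of 43.9 CPM and a median log2 fold change of −0.35, and 31 of them fell by 1 or more on the log2 scale and 8 by 2 or more. The median over all tested genes was 15.7 CPM for the level and −0.00 for the log2 fold change. Among 1940 genes above 100 CPM, 50 rose and 95 fell, while among 4538 genes between 1 and 10 CPM, 326 rose and 61 fell. At like levels above 10 CPM the sizes were close in both directions. The median log2 fold changes of rises and falls were 0.30 and −0.33 above 100 CPM and 0.35 and −0.32 between 10 and 100 CPM. They were 1.20 and −0.69 between 1 and 10 CPM, and 1.89 and −1.64 under 1 CPM. All 5 estrogen libraries lay above all 5 controls for 381 of the 702 genes that rose, beside 3.64% of all tested genes, and below all 5 for 243 of the 417 that fell, beside 2.7% of all tested genes. With upper-quartile scaling 920 genes rose and 288 fell, so the share of calls that were higher was 76.2% in place of 62.7%.

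**Figure D1:**
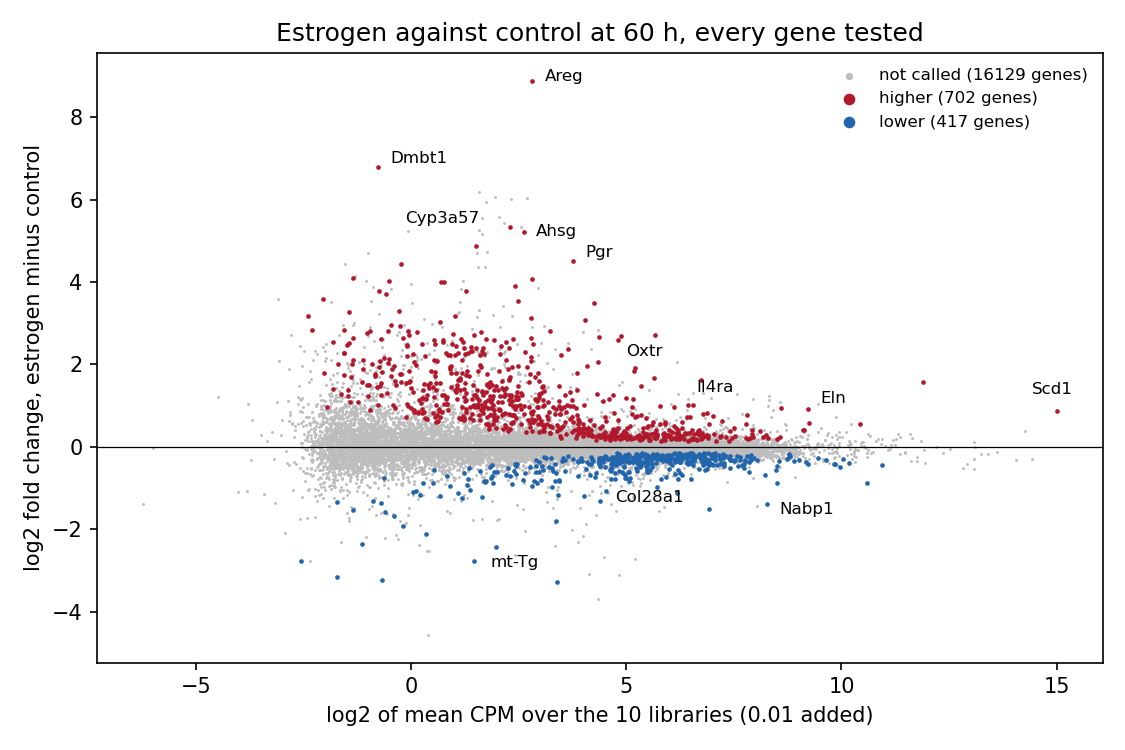
Log2 fold change at 60 h, estrogen minus control, against the log2 mean level of each of 17248 tested genes, with the 702 genes that rose in red, the 417 that fell in blue and the others in grey. The red points spread upwards at low and middle levels, and most blue points lie close under 0 at high levels.

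The number of calls at the adjusted threshold leaned on single libraries. The count was 316 without estrogen replicate 1, 448 without estrogen replicate 5, 436 without control replicate 4, 494 without control replicate 3 and 650 without control replicate 2, and 222 (139 higher, 83 lower) without both libraries that stood apart. It was also below 1119 by more than 1.5 times without estrogen replicate 2, at 709, and with the 60 h groups fitted alone, at 742. The number of genes at an unadjusted edgeR p under 0.05 moved less. It was 3366 (without estrogen replicate 1) to 4169 (without estrogen replicate 4) when 1 library was left out, against 3968 with all. Of the 1119 genes, 189 that rose and 86 that fell were called in all 10 fits that left out 1 library. Most genes described below with their values in each library are among those 275, and for many of the others the number of these fits that called them is given.

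**Figure D2:**
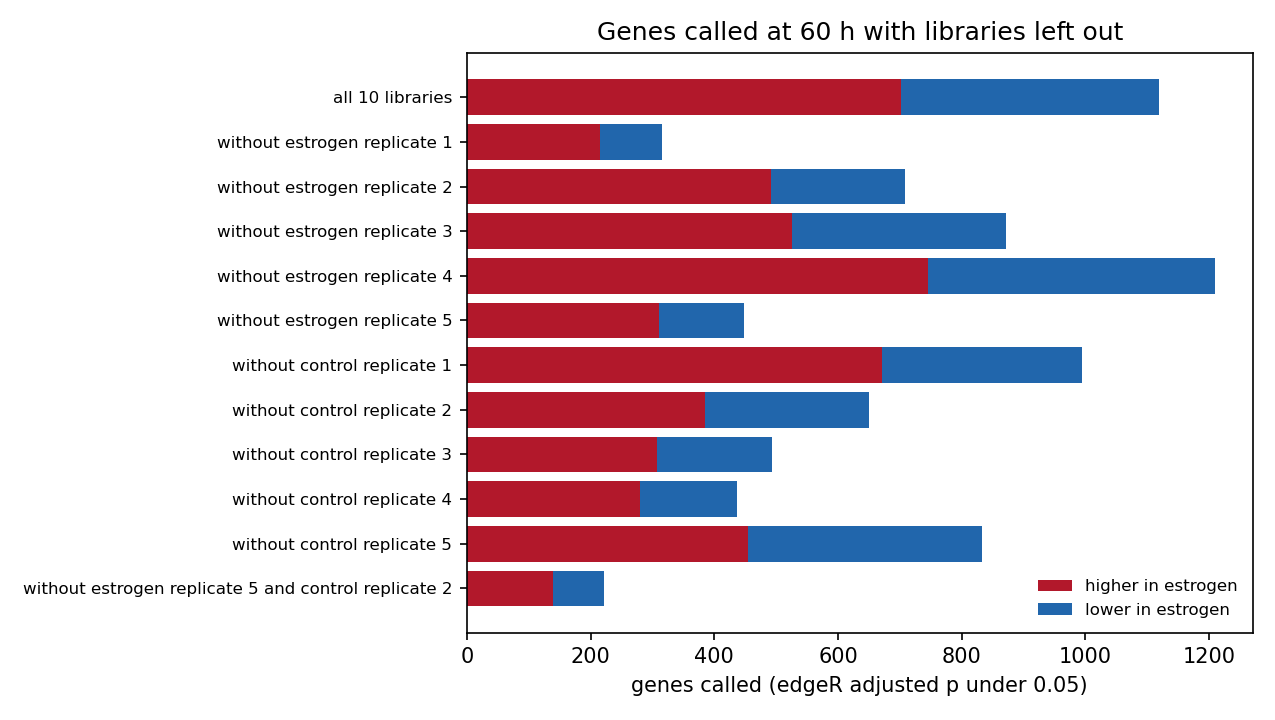
Number of genes called higher (red) and lower (blue) with estrogen at 60 h in the fit of all 10 libraries and in fits without the libraries named. The count lies between 316 and 1210 when 1 library is left out, and is 222 without estrogen replicate 5 and control replicate 2.

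Calls also went with transcript length and base composition. Among 9615 genes at 10 CPM or more with a known transcript length, split into 4 equal groups, the shortest group held 135 genes that rose and 50 that fell, and the longest held 34 that rose and 120 that fell. The median length was 2536.5 bases for genes that rose, 4448 bases for genes that fell and 3617 bases for all. By GC content, the lowest of 4 groups held 31 that rose and 147 that fell and the highest held 112 that rose and 46 that fell. The median log2 level of the highest GC group minus that of the lowest, each taken around the gene means, was 0.0249 to 0.103 in estrogen libraries and −0.0998 to 0.0154 in controls, with no overlap. With a correction for GC content and length in each library, 658 genes rose and 298 fell of 16603, against 673 and 406 of the same genes without it. The part of these properties in single calls was not tested, and a gene named below that was not called with the correction is marked as such.

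The hormone's known targets were among the clearest changes. Pgr encodes the progesterone receptor and is a direct target of the estrogen receptor (chr9:8899833-8968611, plus strand, GRCm38). It had 36.3, 16.1, 34.7, 19.4 and 22.5 CPM in estrogen replicates 1 to 5, against 2.35, 0.766, 0.506, 1.36 and 0.684 CPM in control replicates 1 to 5. The lowest treated library lay well above the highest control, and the log2 fold change was 4.50 ± 0.57 (edgeR adjusted p = 0.000689). Areg encodes amphiregulin, the ligand through which estrogen drives duct growth (chr5:91139599-91148432, plus strand). Areg had 22.9, 7.10, 22.8, 4.22 and 13.0 CPM with estrogen, against 0.0610, 0, 0, 0.0348 and 0.0325 CPM in controls. Control replicates 2 and 3 held no Areg read at all. The treated libraries held 2226 Areg reads and the controls 4, a ratio of 544 with an exact 95% interval of 212 to 1999 that covers counting error only, and the fitted log2 fold change was 8.88 ± 1.35 (edgeR adjusted p = 0.00256). Estrogen replicates 1 and 3 were the highest for both genes and replicates 2 and 4 the lowest for Areg.

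Of 24 tested genes on a list of estrogen targets in breast or uterus, 8 rose and 1 fell, with a median log2 fold change of 0.37; 2 rose without estrogen replicate 5 and control replicate 2. Beside Pgr and Areg, Myb, a proto-oncogene transcription factor, averaged 10.2 ± 3.85 CPM with estrogen and 2.63 ± 1.02 CPM in controls (1.95 ± 0.39, edgeR adjusted p = 0.0119). Cited1, a coactivator of the estrogen receptor, averaged 20.8 ± 9.94 CPM with estrogen and 4.02 ± 2.52 CPM in controls (2.37 ± 0.50, edgeR adjusted p = 0.014). The cyclin D1 gene Ccnd1, which takes cells out of rest, averaged 34.0 ± 6.45 CPM and 21.7 ± 4.41 CPM, with estrogen replicate 4 (24.2 CPM) inside the range of controls, which reached 27.3 CPM (0.65 ± 0.14, edgeR adjusted p = 0.0155). Greb1, a receptor cofactor, rose by 1.34 ± 0.35 but its groups overlapped and it was called in 3 of the 10 leave-one-out fits. The member that fell was Igf1, a growth factor of the stroma (−0.33 ± 0.10, called in 1 of 10), which was not called with the GC and length correction (−0.18, edgeR adjusted p = 0.203).

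The promoter windows of these genes were read for the receptor's sequence. The full estrogen response element was searched as GGTCA and TGACC with 3 bases of any kind between them, on both strands, in RefSeq windows of 250 bases before to 50 after each start (GRCm38.p6). Of 12257 tested genes with a window, 3 held it, and of 490 genes that rose with a window, 0 did. The half-site GGTCA or TGACC was in the windows of 45.1% of genes that rose, 44.5% of those that fell and 42.7% of all. The windows of Areg and Pgr are shown because both are well-known targets of the hormone that rose in every treated library, with half-sites in capitals. Areg (chr5:91139349-91139648, plus strand) held 1 half-site, at base 275 of the 300-base window, and Pgr (chr9:8899583-8899882, plus strand) held none. That these letters are absent says nothing of sites elsewhere.
Areg: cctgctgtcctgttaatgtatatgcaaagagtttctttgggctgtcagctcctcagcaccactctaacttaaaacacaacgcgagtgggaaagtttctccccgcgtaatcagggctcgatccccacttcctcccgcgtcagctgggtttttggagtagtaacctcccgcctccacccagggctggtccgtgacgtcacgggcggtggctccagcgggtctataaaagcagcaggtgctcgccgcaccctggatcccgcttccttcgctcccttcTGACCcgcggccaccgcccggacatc
Pgr: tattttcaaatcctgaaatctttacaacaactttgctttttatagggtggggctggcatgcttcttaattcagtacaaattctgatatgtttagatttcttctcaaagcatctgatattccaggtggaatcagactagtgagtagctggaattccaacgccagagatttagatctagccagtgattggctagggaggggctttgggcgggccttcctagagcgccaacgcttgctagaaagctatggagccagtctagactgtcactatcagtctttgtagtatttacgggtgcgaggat

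Of 33 steroid and nuclear receptor genes tested, 1 rose, which was Pgr, and 4 fell. The number that fell was 1 without estrogen replicate 1, and 2 without estrogen replicate 2 or 5 or control replicate 1, 2 or 4. It was 1 without estrogen replicate 5 and control replicate 2, and 0 with limma on log2(RPKM + 0.1). Esr1, the estrogen receptor gene itself, averaged 89.0 ± 5.41 CPM with estrogen and 108 ± 20.3 CPM in controls and was not called (−0.28 ± 0.11, edgeR adjusted p = 0.132). Nr5a2, an orphan receptor that governs steroid and bile acid enzymes, had 6.85, 5.58, 7.88, 9.84 and 9.62 CPM with estrogen, against 15.7, 14.0, 10.6, 16.0 and 12.7 CPM in controls. Its groups did not overlap and it fell (−0.79 ± 0.17, edgeR adjusted p = 0.0131). Nr4a2, an early response receptor (−0.49 ± 0.11), and Nr2f2, a receptor of stroma and veins (−0.29 ± 0.09), also fell and were called in 9 and 2 of the 10 leave-one-out fits. Nr2f2 was not called with the GC and length correction (edgeR adjusted p = 0.0899).

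**Figure D3:**
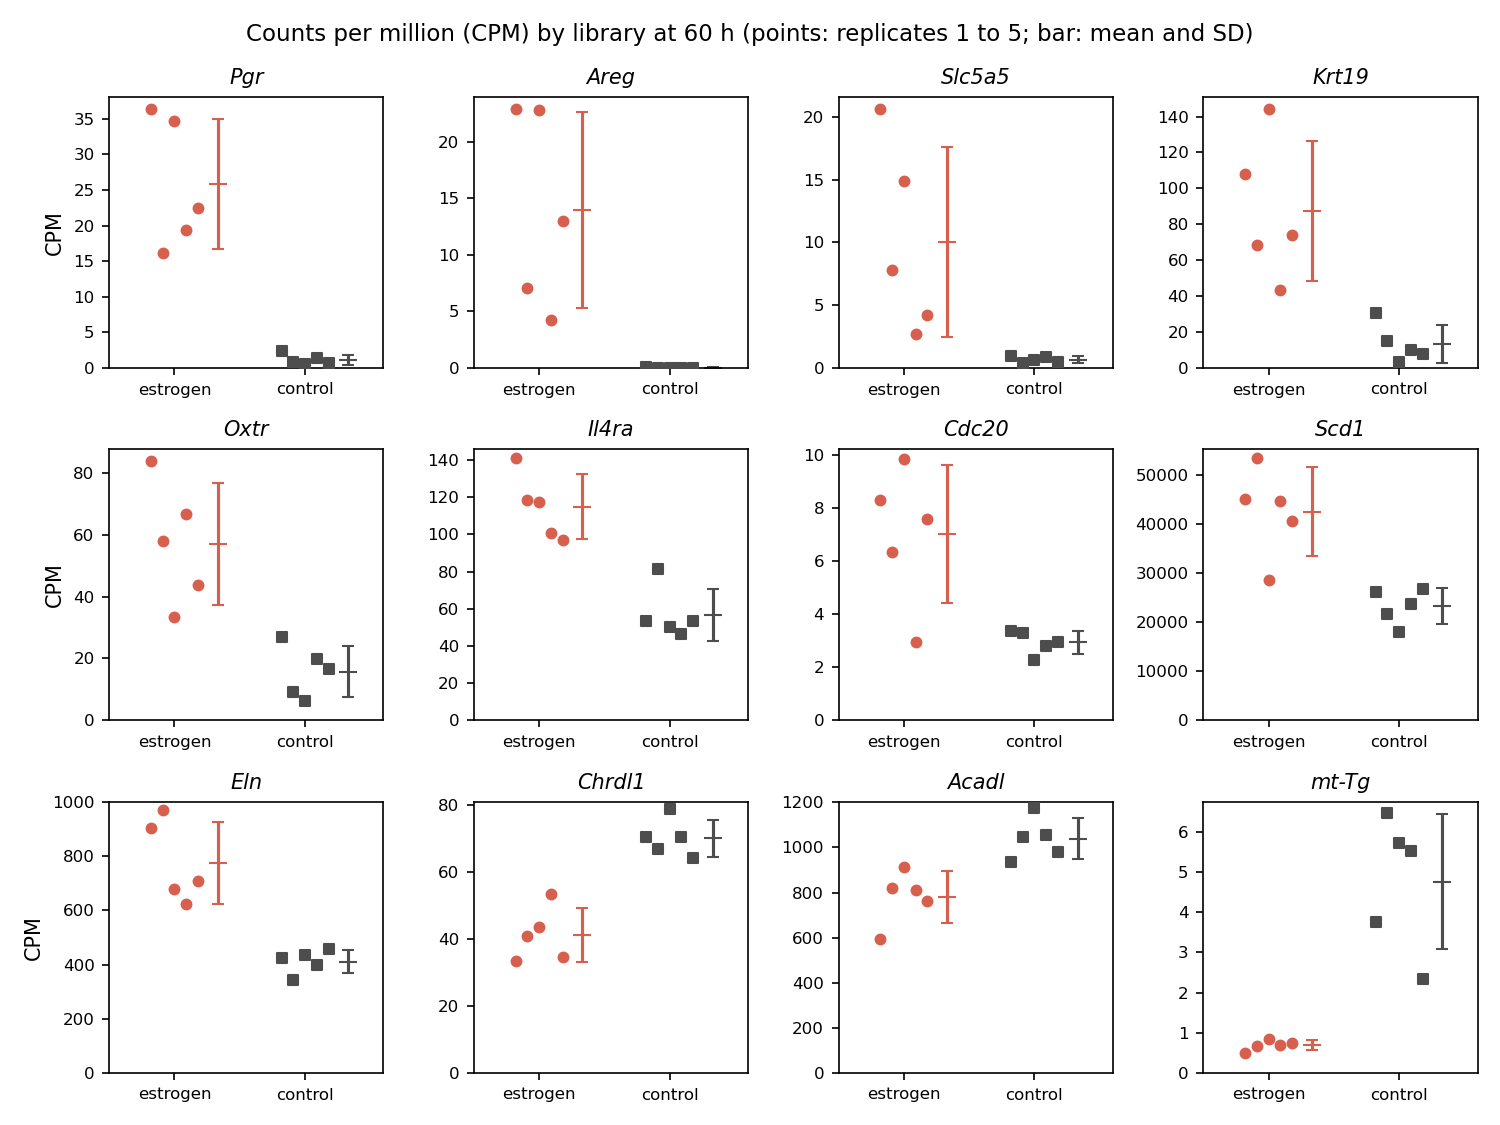
CPM of 12 genes in each library at 60 h, estrogen (circles) left of control (squares), with the mean and SD beside the points. Pgr, Areg, Slc5a5, Krt19, Oxtr, Il4ra, Scd1 and Eln are higher in all 5 estrogen libraries than in any control, Chrdl1, Acadl and mt-Tg are lower in all 5, and for Cdc20 estrogen replicate 4 lies among the controls.

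Several of the most consistent rises were in genes outside any list of estrogen targets or cell markers used here. Dmbt1, which encodes a secreted scavenger protein of mucosal surfaces, had 2.27, 0.913, 1.37, 0.689 and 0.479 CPM with estrogen, against 0.0305, 0, 0, 0 and 0 CPM in controls. That is 182 reads in the treated libraries and 1 read in the controls, a ratio of 178 with an exact 95% interval of 31.6 to 7069, and the gene had the smallest p of all 17248 (edgeR adjusted p = 0.000233); its locus overlaps Fgfr2 on the other strand. Cyp3a57, a cytochrome P450 of the family that oxidises steroids and drugs, had 14.4, 7.00, 11.6, 5.76 and 8.73 CPM with estrogen, against 0.275, 0.133, 0.0893, 0.522 and 0.163 CPM in controls. Every control was under 1 CPM and every treated library above 5 CPM (5.33 ± 0.65, edgeR adjusted p = 0.000689); other members of this family have similar sequences, and how the authors' counting split reads between them is not given in the sources used here.

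The predicted gene Gm16485 had 7.28, 3.69, 7.51, 4.11 and 5.03 CPM with estrogen, against 0.580, 0.0666, 0.0893, 0.0696 and 0.0976 CPM in controls (4.88 ± 0.66, edgeR adjusted p = 0.00116). It lies on the same strand as Pgr and begins 3179 bases beyond the annotated end of Pgr. Rasgrf1, an exchange factor that switches on Ras, had 15.3, 7.74, 14.3, 10.5 and 11.4 CPM with estrogen, against 2.66, 2.66, 1.07, 1.67 and 1.43 CPM in controls (2.64 ± 0.34, edgeR adjusted p = 0.000689). Slc35f3, a member of the nucleotide sugar transporter family whose product is linked to thiamine uptake, had 3.14, 3.82, 4.43, 2.59 and 3.32 CPM with estrogen, against 0.855, 0.466, 0.506, 0.800 and 0.553 CPM in controls (2.44 ± 0.32, edgeR adjusted p = 0.000689). In none of these genes did a treated library reach the range of controls.

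The same held for genes of higher level that moved less. Il4ra encodes the receptor chain for interleukins 4 and 13 (chr7:125552120-125579474, plus strand) and had 141, 119, 118, 101 and 97.1 CPM with estrogen, against 53.4, 81.3, 50.02, 46.3 and 53.2 CPM in controls. Control replicate 2, the library with high interferon-induced genes, was the highest control, and without it the log2 fold change had an edgeR adjusted p of 4.6e-06, against 0.000689 with all libraries (1.02 ± 0.13). Oxtr, the oxytocin receptor gene, which myoepithelial cells and fat cells use, had 83.8, 57.9, 33.2, 66.6 and 43.6 CPM with estrogen, against 27.0, 9.22, 6.40, 19.8 and 16.5 CPM in controls (1.85 ± 0.35, edgeR adjusted p = 0.0114). The tubulin gene Tuba1b averaged 71.0 ± 7.04 CPM and 48.4 ± 4.54 CPM (0.55 ± 0.07); near-identical alpha tubulin genes can share its reads. Tmed3, which sorts cargo in the early secretory path, averaged 82.8 ± 7.50 CPM with estrogen and 59.8 ± 3.10 CPM in controls (0.47 ± 0.07, edgeR adjusted p = 0.0014). Smaller genes of this kind were Gcnt4, a mucin glycosyltransferase (2.27 ± 0.33), Mal2, an apical sorting protein (1.22 ± 0.17), and Adamts18, a secreted protease (1.84 ± 0.28), each called in all 10 leave-one-out fits.

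Genes of the duct epithelium rose as a group. Of 24 tested luminal genes, 16 rose and 0 fell (21 at an unadjusted p under 0.05, all higher; 20 by DESeq2), with a median log2 fold change of 2.24. Their summed level was 305 to 652 CPM with estrogen and 73.6 to 254 CPM in controls, and 18 had no overlap between the groups. The number called was 4 (without estrogen replicate 1) to 21 (without control replicate 1) when 1 library was left out, 8 without estrogen replicate 5, 6 without control replicate 2 and 1 without both of the last. The median was 1.96 to 2.81 over the same leave-one-out fits. Control replicate 1 was the highest control for this list and control replicate 3 the lowest, with the lowest value of any library.

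Krt19, a keratin of simple epithelia, had 108, 68.3, 144, 43.6 and 74.3 CPM with estrogen, against 30.6, 14.9, 3.39, 9.92 and 7.78 CPM in controls (2.71 ± 0.59, edgeR adjusted p = 0.0168). Aqp5, a water channel of secretory cells, had 16.9, 8.83, 18.2, 7.72 and 9.69 CPM with estrogen, against 3.54, 0.932, 0.0893, 1.496 and 0.911 CPM in controls (3.13 ± 0.66, edgeR adjusted p = 0.014). The lowest treated library stood above the highest control in both. Krt7 rose by 2.81 ± 0.55, and Krt8, Cldn3, Epcam and Elf3 rose by 3.09, 2.30, 2.66 and 2.84, with 8, 7, 7 and 6 of the 10 leave-one-out fits calling them. The luminal master regulators Foxa1 (2.22 ± 0.70, edgeR adjusted p = 0.0651) and Gata3 (1.76 ± 0.55, edgeR adjusted p = 0.0643) did not pass, although all 5 treated libraries were above all controls for Foxa1 and DESeq2 called both higher.

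Genes of the apical surface and of transport rose in part. Slc5a5 encodes the iodide transporter that the lactating gland uses to load milk with iodide. It had 20.6, 7.81, 14.9, 2.67 and 4.18 CPM with estrogen, against 0.977, 0.399, 0.655, 0.835 and 0.456 CPM in controls, and estrogen replicates 1 and 3 were the highest (3.91 ± 0.64, edgeR adjusted p = 0.00363). Of 28 ion channels and transporters of epithelia, 6 rose and 0 fell (12 at an unadjusted p under 0.05, all higher; 8 by DESeq2), and 2 were called without estrogen replicate 5 and control replicate 2. They included Aqp5, which is also on the luminal list, Slc12a2, the sodium, potassium and chloride cotransporter (126 ± 31.2 CPM with estrogen and 62.5 ± 7.18 CPM in controls, 1.01 ± 0.19), Scnn1a, a subunit of the epithelial sodium channel (1.25 ± 0.26), and Slc5a1, a sodium and glucose cotransporter (2.14 ± 0.45). Tmprss2, a membrane-bound serine protease, had 43.4, 29.4, 65.5, 13.5 and 22.6 CPM with estrogen, against 6.59, 2.26, 0.595, 3.37 and 2.80 CPM in controls (3.48 ± 0.70, edgeR adjusted p = 0.0124). Prom2, a prominin of cell protrusions, and Ggt1, which breaks down glutathione outside the cell, rose by 4.07 ± 0.79 and 3.78 ± 0.78.

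Of 38 genes of tight junctions, desmosomes and polarity, 19 rose and 0 fell (29 higher and 2 lower at an unadjusted p under 0.05; 28 higher and 1 lower by DESeq2), with a median log2 fold change of 1.65. Dsg2, a desmosome cadherin, averaged 3.24 ± 1.04 CPM with estrogen and 0.571 ± 0.409 CPM in controls (2.498 ± 0.57), and Ocln, occludin of tight junctions, 2.94 ± 0.641 CPM and 0.792 ± 0.395 CPM (1.89 ± 0.45, called in 8 of 10). The number of rises was 1 (without estrogen replicate 1) to 23 (without control replicate 1) when 1 library was left out, 4 without estrogen replicate 5, 3 without control replicate 2 and 0 without both of the last, and the median over the leave-one-out fits was 1.46 to 2.04. Of 39 epithelial transcription factors, 10 rose and 0 fell (23 higher and 1 lower at an unadjusted p under 0.05; 19 higher by DESeq2), and 2 to 19 were called when 1 library was left out and 0 without estrogen replicate 5 and control replicate 2. The Iroquois genes Irx3, Irx5 and Irx2, which pattern many epithelia, rose by 1.47 ± 0.32, 1.22 ± 0.25 and 1.78 ± 0.42, and Tfap2c, a luminal AP-2 factor, by 2.45 ± 0.63; Irx3 and Irx5 were called in all 10 leave-one-out fits, Irx2 in 6 and Tfap2c in 3.

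Genes of milk and its control rose in part. Of 17 tested, 8 rose and 0 fell (9 higher and 1 lower at an unadjusted p under 0.05; 9 higher by DESeq2), and 2 to 8 were called when 1 library was left out and 3 without estrogen replicate 5 and control replicate 2. Folr1, a folate receptor, averaged 1.05 ± 0.280 CPM with estrogen and 0.232 ± 0.0997 CPM in controls (2.16 ± 0.36), and Mfge8, a milk fat globule protein, 210.5 ± 15.5 CPM and 152 ± 18.9 CPM (0.47 ± 0.10); both were called in all 10 leave-one-out fits. Stat5a, the transcription factor of prolactin signalling, rose by 0.32 ± 0.07 and was called in 9 of the 10. Ltf, lactoferrin, had 41.9, 51.7, 54.8, 41.2 and 50.2 CPM with estrogen, against 16.6, 6.46, 0.655, 9.46 and 6.44 CPM in controls, an even level in treated libraries beside controls that differed widely among themselves, with no overlap (2.60 ± 0.65, called in 5 of 10). The kappa casein gene Csn3 rose by 2.55 ± 0.66 and was called in 3 of 10.

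Basal and myoepithelial genes gave fewer calls than luminal ones, and the difference between the 2 counts was not tested. Of 19 tested, 3 rose and 0 fell (12 at an unadjusted p under 0.05, all higher; 8 by DESeq2), with a median log2 fold change of 0.73. They included Oxtr and Igfbp2, which binds insulin-like growth factors (4.00 ± 0.60), and both were called in all 10 leave-one-out fits. Krt14, the usual basal keratin, had 20.0, 9.77, 21.9, 10.5 and 43.6 CPM with estrogen, against 13.2, 1.33, 0.387, 1.70 and 1.73 CPM in controls, where replicate 1 stood apart and overlapped the treated range, and was not called (2.51 ± 0.99, edgeR adjusted p = 0.138). None of 21 skin and hair genes was called by edgeR (7 at an unadjusted p under 0.05, 3 by DESeq2), and their median log2 fold change of 2.96 was −1.04 without estrogen replicate 5.

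**Figure D4:**
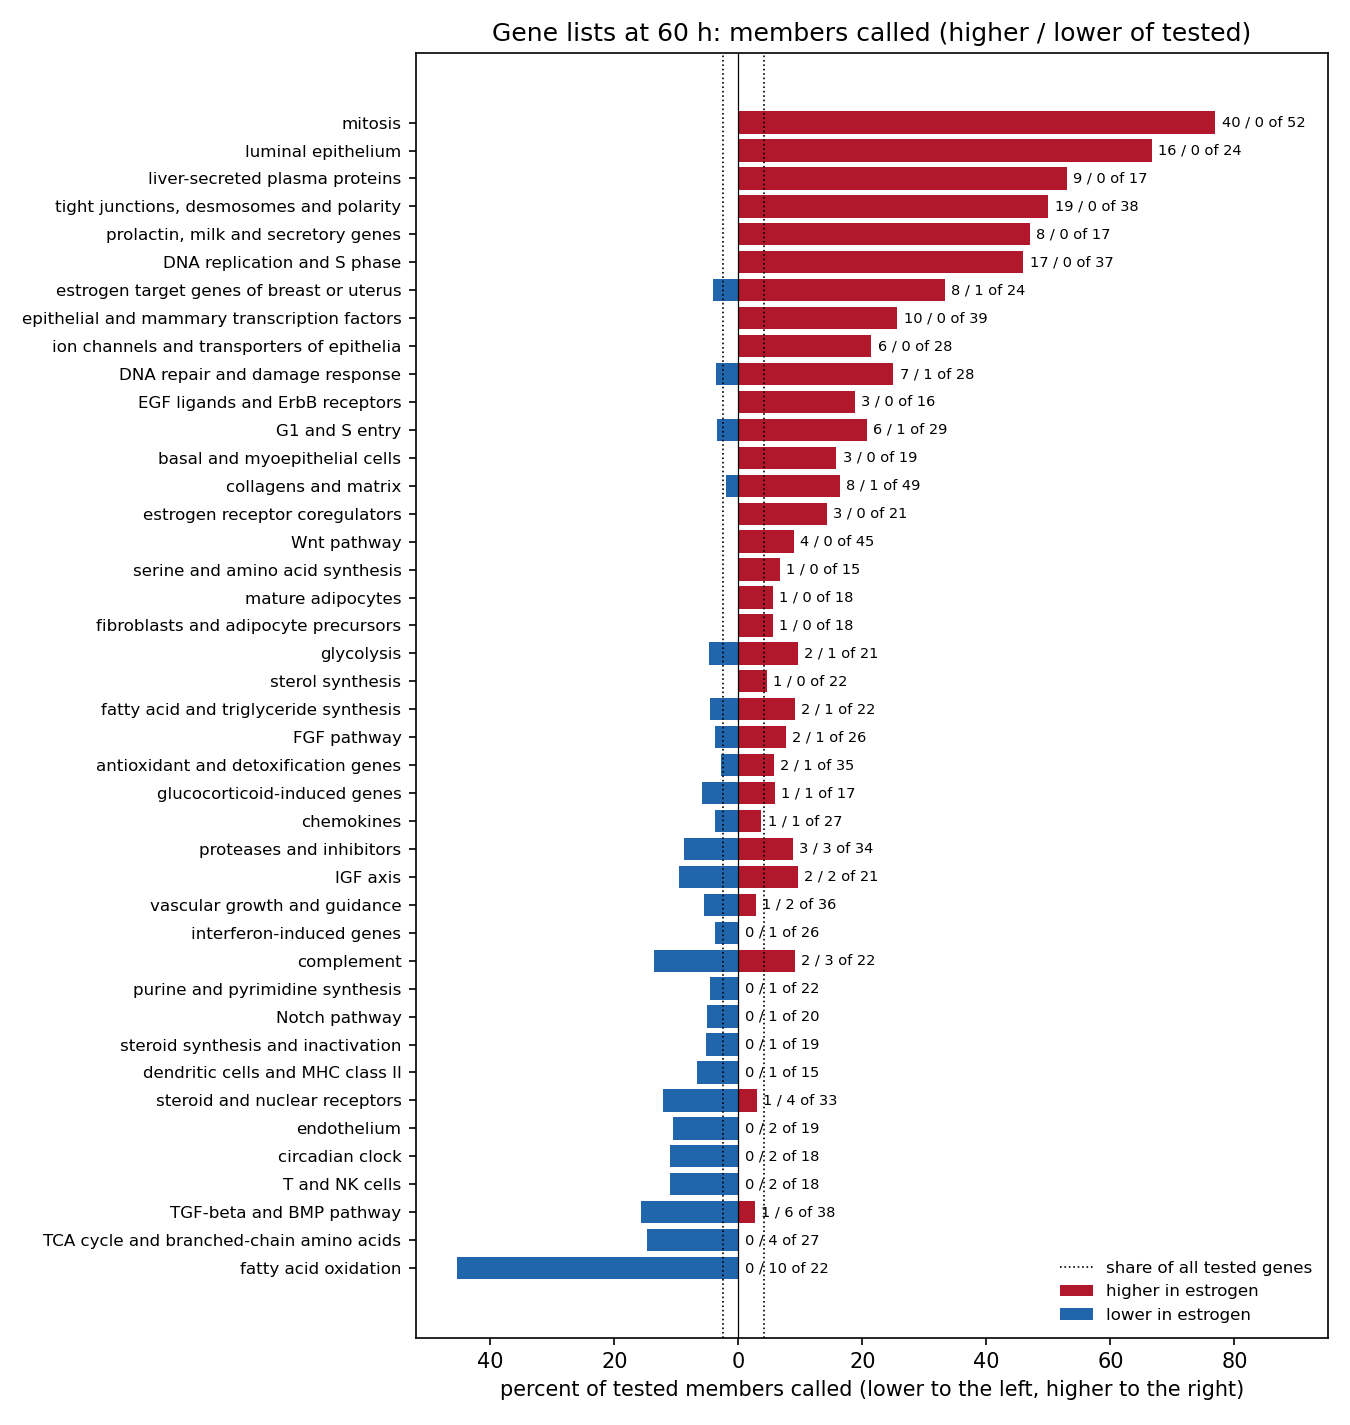
Percent of the tested members of each gene list called lower (blue, to the left) or higher (red, to the right) with estrogen at 60 h, with the counts beside each bar, for lists of 15 or more tested genes with a call. Dotted lines mark the 2.42% and 4.07% of all tested genes; 40 of 52 mitosis genes and 16 of 24 luminal genes rose, and 10 of 22 fatty acid oxidation genes fell. The list of liver-secreted plasma proteins was drawn up after the values had been seen, so its bar supports nothing.

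Among growth factor pathways, the calls fell on particular members. The counts of these lists stand beside the 4.07% of all tested genes that rose and the 2.42% that fell. In the EGF family Areg rose, as above, and so did the receptor gene Erbb3, with 31.5, 22.6, 33.4, 21.6 and 31.2 CPM with estrogen, against 14.4, 12.6, 8.87, 12.3 and 9.47 CPM in controls, a rise without overlap (1.28 ± 0.24, edgeR adjusted p = 0.00799). Errfi1, a feedback inhibitor of the EGF receptor, rose by 0.82 ± 0.23 and was called in 2 of the 10 leave-one-out fits; none of the other 13 tested members was called by edgeR (1 at an unadjusted p under 0.05; DESeq2 called 3 of the 16). Of 45 Wnt pathway genes, 4 rose and 0 fell (12 higher and 2 lower at an unadjusted p under 0.05; 6 higher and 1 lower by DESeq2). The number that rose was 0 (without control replicate 3 or 4) to 5 when 1 library was left out, 1 without estrogen replicate 1 or 5 and 0 without estrogen replicate 5 and control replicate 2. Wnt4, a paracrine signal of hormone-responsive cells, averaged 10.2 ± 3.86 CPM with estrogen and 0.874 ± 0.767 CPM in controls (3.54 ± 0.81, called in 8 of 10). Rnf43, which removes Wnt receptors, Wnt5b and the receptor gene Fzd3 rose by 1.56 ± 0.42, 0.55 ± 0.16 and 0.42 ± 0.12 and were called in 3, 1 and 3 of 10; Wnt5b was not called with the GC and length correction (edgeR adjusted p = 0.0706).

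In the FGF pathway the transcription factor Etv4, a target of this signal, had 6.31, 1.59, 5.54, 2.37 and 4.96 CPM with estrogen, against 1.13, 0.899, 0.744, 0.626 and 0.879 CPM in controls, with estrogen replicates 2 and 4 the lowest treated libraries and above all controls (2.27 ± 0.43, edgeR adjusted p = 0.00921). Its relative Etv5 rose by 0.37 ± 0.11 (called in 2 of 10). Dusp4, a phosphatase that shuts off MAP kinases, had 25.5, 37.4, 41.0, 72.4 and 52.6 CPM with estrogen, against 136, 51.4, 100.1, 106 and 106 CPM in controls, of which replicate 2 lay in the treated range (−1.12 ± 0.28, called in 3 of 10). None of the other 23 tested members was called by edgeR; of all 26, 7 higher and 5 lower had an unadjusted p under 0.05, and DESeq2 called 5 higher and 3 lower. Without control replicate 2, edgeR called 3 lower.

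Of 21 tested genes of the insulin-like growth factor axis 2 rose and 2 fell, and binding proteins moved both ways. At an unadjusted p under 0.05, 7 were higher and 3 lower, and DESeq2 called 5 higher and 3 lower. When 1 library was left out, 1 to 3 rose and 1 to 2 fell. Igfbp3, the main carrier, had 52.3, 78.9, 67.5, 59.9 and 74.1 CPM with estrogen, against 113, 83.1, 106, 147 and 125 CPM in controls, with no overlap (−0.79 ± 0.14, edgeR adjusted p = 0.00633). Igfbp2 had 3.84, 2.06, 5.45, 0.854 and 2.84 CPM with estrogen, against 0.336, 0.166, 0.238, 0.0348 and 0.130 CPM in controls, a low level that rose in every treated library (4.00 ± 0.60, edgeR adjusted p = 0.00187). Pappa2, a protease that cleaves such carriers, rose by 0.84 ± 0.23 (called in 3 of 10).

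In the TGF-beta and BMP pathway 1 of 38 genes rose and 6 fell, and 1 rose and 5 fell with the GC and length correction. Chrdl1, an extracellular BMP antagonist, had 33.5, 40.9, 43.6, 53.4 and 34.5 CPM with estrogen, against 70.5, 66.8, 78.8, 70.4 and 64.2 CPM in controls, with no overlap (−0.77 ± 0.11, edgeR adjusted p = 0.00173). Among the others, Fst, the activin antagonist follistatin, the activin receptor gene Acvr2a, the ligand gene Bmp6 and the receptor gene Bmpr2 had log2 fold changes of −0.51 ± 0.13, −0.50 ± 0.12, −0.33 ± 0.08 and −0.31 ± 0.08 and were called in 6, 9, 3 and 3 of 10. Inhbb, the activin B subunit gene, which fat cells express, had 117, 77.6, 72.0, 106 and 87.7 CPM with estrogen, against 52.1, 57.0, 42.6, 42.1 and 40.9 CPM in controls, with no overlap (0.97 ± 0.22, edgeR adjusted p = 0.0182, called in 9 of 10). The list had 1 to 7 falls when 1 library was left out, 1 without estrogen replicate 1, 2 without estrogen replicate 2 or 5 and 1 without estrogen replicate 5 and control replicate 2. Of 20 Notch genes 1 was called, the ligand gene Jag1 (−0.23 ± 0.07, called in 1 of 10, and edgeR adjusted p = 0.0908 with the GC and length correction). The chemokine gene Cxcl14 had 52.1, 42.6, 41.6, 34.1 and 50.1 CPM with estrogen, against 22.4, 29.0, 12.3, 16.8 and 16.6 CPM in controls, with no overlap (1.18 ± 0.25, edgeR adjusted p = 0.014).

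Genes of cell division rose together. Of 52 mitosis genes 40 rose and 0 fell (51 at an unadjusted p under 0.05, all higher; 46 by DESeq2), and all 52 had a positive log2 fold change, with a median of 1.02. The summed level was 635, 461, 740, 276 and 548 CPM in estrogen replicates 1 to 5, against 360, 282, 318, 270 and 299 CPM in control replicates 1 to 5. Estrogen replicate 4 lay within the range of controls, and 1 of the 52 genes had no overlap between the groups. The number called was 7 to 50 when 1 library was left out: 7 without estrogen replicate 1 or control replicate 4, 13 without estrogen replicate 5, 13 without control replicate 2, 50 without estrogen replicate 4. It was 7 when the 2 groups at 60 h were fitted alone and 1 without estrogen replicate 5 and control replicate 2. The median log2 fold change of the mitosis list was 0.85 (without estrogen replicate 3) to 1.23 (without estrogen replicate 4) when 1 library was left out.

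Cdc20, the activator of the anaphase-promoting complex, had 8.32, 6.36, 9.85, 2.95 and 7.60 CPM with estrogen, against 3.39, 3.30, 2.29, 2.82 and 2.96 CPM in controls (1.25 ± 0.25, edgeR adjusted p = 0.0119). Plk1, a mitotic kinase, had 7.71, 4.50, 7.88, 2.45 and 6.68 CPM with estrogen, against 3.205, 2.16, 2.59, 2.37 and 2.05 CPM in controls (1.24 ± 0.26, edgeR adjusted p = 0.0138). Again estrogen replicate 4 was the one treated library within the range of controls. Kif14, a kinesin of the last step of division, Ttk, the spindle checkpoint kinase, and Spc24, a kinetochore protein, rose by 1.37 ± 0.30, 1.26 ± 0.28 and 0.89 ± 0.18, each called in all 10 leave-one-out fits. Mki67, the usual proliferation marker, rose by 1.15 ± 0.33 and was called in 2 of 10.

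Promoters of mitosis genes are known for CCAAT boxes and for the cell cycle homology element TTTGAA, at which cell cycle repressor complexes act. Both were searched on both strands of the same windows. CCAAT was in the windows of 74.4% of 43 mitosis genes and 42.0% of all 12257 genes, and TTTGAA in 76.7% of the mitosis genes and 15.01% of all. Among all genes that rose, 46.9% held CCAAT and 21.4% held TTTGAA. The windows of Cdc20 (chr4:118437294-118437593, minus strand) and Plk1 (chr7:122159185-122159484, plus strand) are shown as the mitosis genes with the smallest p that hold both, with both motifs in capitals. Cdc20 held CCAAT at bases 198 and 243 and TTTGAA at base 233, and Plk1 held CCAAT at base 237 and TTTGAA at base 281. A match is a description of the letters in this window.
Cdc20: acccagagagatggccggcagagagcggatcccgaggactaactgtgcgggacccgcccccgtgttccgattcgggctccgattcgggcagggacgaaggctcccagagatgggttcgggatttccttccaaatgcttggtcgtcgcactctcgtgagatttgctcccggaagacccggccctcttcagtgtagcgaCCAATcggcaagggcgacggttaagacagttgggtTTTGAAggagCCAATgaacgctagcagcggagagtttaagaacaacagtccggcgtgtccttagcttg
Plk1: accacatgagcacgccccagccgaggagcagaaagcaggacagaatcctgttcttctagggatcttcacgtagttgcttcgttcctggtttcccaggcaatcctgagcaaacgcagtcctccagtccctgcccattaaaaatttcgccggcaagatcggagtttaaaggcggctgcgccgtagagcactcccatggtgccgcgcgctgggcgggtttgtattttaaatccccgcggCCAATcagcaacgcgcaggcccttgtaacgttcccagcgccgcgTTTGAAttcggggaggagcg

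Of 37 replication genes 17 rose and 0 fell (28 at an unadjusted p under 0.05, all higher; 20 by DESeq2), with a median log2 fold change of 0.42. The number called was 4 (without estrogen replicate 3 or control replicate 4) to 23 (without estrogen replicate 4) when 1 library was left out, 5 without estrogen replicate 1 or 5, 8 without control replicate 2, and 1 without estrogen replicate 5 and control replicate 2. Tk1, thymidine kinase, averaged 1.43 ± 0.621 CPM with estrogen and 0.475 ± 0.196 CPM in controls (1.57 ± 0.32). Mcm10, a replication initiation factor, rose by 1.25 ± 0.25, Chaf1b, a chromatin assembly factor, by 1.10 ± 0.22, and Pole, a replicative polymerase, by 0.80 ± 0.17, whose treated libraries all lay above all controls. Exo1, a repair exonuclease, had 2.74, 2.23, 3.31, 0.717 and 2.12 CPM with estrogen, against 0.641, 0.666, 0.625, 0.626 and 0.781 CPM in controls, with estrogen replicate 4 among the controls (1.73 ± 0.32, edgeR adjusted p = 0.00799), and the repair genes Rad54l and Fancd2 rose by 1.16 ± 0.22 and 0.93 ± 0.17. Among 29 genes of entry into the cell cycle 6 rose and 1 fell. The number that rose was 2 without estrogen replicate 1, 3 or 5 or control replicate 2, 8 without estrogen replicate 4, 2 with the groups fitted alone and 0 without estrogen replicate 5 and control replicate 2. E2f1, a transcription factor of S phase genes, averaged 16.3 ± 2.95 CPM with estrogen and 10.7 ± 1.31 CPM in controls (0.60 ± 0.13), and Foxm1, which drives mitosis genes, and the cyclin E1 gene Ccne1 rose by 0.84 ± 0.21 and 0.47 ± 0.13 (called in 4 and 3 of 10). Cdkn1c, the cell cycle inhibitor p57, was the one that fell (−0.36 ± 0.10), and it was called in 4 of 10.

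Among genes that make the materials for growth, 3 lists gave no such group. Of 44 ribosome biogenesis genes edgeR called none, with 2 higher and 4 lower at an unadjusted p under 0.05 and 1 higher by DESeq2. Of 20 aminoacyl-tRNA synthetases it called none, with 3 higher at an unadjusted p under 0.05 and 2 by DESeq2, and of 28 chaperones none, with 3 lower at an unadjusted p under 0.05 and 1 by DESeq2. The medians of the 3 lists lay between −0.06 and 0.04. Of 89 genes with symbols like those of cytosolic ribosomal proteins 7 rose, among them the binding protein gene Rps19bp1, and 0 fell (median 0.15). Of 48 with the symbols of proteasome genes 5 rose and 0 fell (median 0.11), beside 4.07% and 2.42% of all tested genes. Of 22 genes of purine and pyrimidine synthesis 0 rose and 1 fell, Impdh1. Psat1, an enzyme of serine synthesis, was the one of 15 genes of amino acid synthesis that rose. It had 91.2, 71.4, 59.6, 73.7 and 63.5 CPM with estrogen, against 51.2, 53.4, 48.3, 40.0 and 44.3 CPM in controls, with no overlap (0.60 ± 0.09, edgeR adjusted p = 0.00256).

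Fat cell genes were read by their markers and by their enzymes. Of 18 mature adipocyte genes 1 rose, the adipokine gene Retn (726 ± 135 CPM with estrogen and 482 ± 36.1 CPM in controls, 0.59 ± 0.14, called in 9 of the 10 leave-one-out fits and not without estrogen replicate 1). None fell (3 higher and 2 lower at an unadjusted p under 0.05; 1 lower by DESeq2). Adipoq was not called (−0.05 ± 0.10, edgeR adjusted p = 0.829). Scd1, the enzyme that puts the first double bond into saturated fatty acids, was the most abundant gene of these libraries that was called. It took 4.50%, 4.89%, 2.88%, 4.05% and 3.97% of all counts in estrogen replicates 1 to 5, against 2.57%, 2.12%, 1.70%, 2.17% and 2.57% in control replicates 1 to 5 (0.87 ± 0.16, edgeR adjusted p = 0.00719). The groups did not overlap. G6pdx, which makes NADPH for lipid synthesis, rose by 0.61 ± 0.13, and Rbp4, a retinol carrier that fat cells secrete, by 0.56 ± 0.12. Of the other 21 tested genes of fatty acid and triglyceride synthesis 1 rose, the desaturase gene Fads2 (0.46 ± 0.12, called in 5 of 10), and 1 fell, the acetyl-CoA carboxylase gene Acacb (−0.42 ± 0.12, called in 3 of 10). Npr3, the clearance receptor for natriuretic peptides, rose by 0.94 ± 0.27 and was called in 1 of 10.

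Enzymes that burn fatty acids fell by small amounts. Of 22 tested 10 fell and 0 rose (15 at an unadjusted p under 0.05, all lower; 12 by DESeq2), with a median log2 fold change of −0.29; with the GC and length correction 8 fell. Acadl, which starts the breakdown of long chains, had 595, 818, 913, 811 and 761 CPM with estrogen, against 935, 1047, 1175, 1054 and 981 CPM in controls, with no overlap (−0.41 ± 0.09, edgeR adjusted p = 0.0167). Acadvl, the electron carriers Etfa and Etfdh, and the carnitine carrier gene Slc25a20 had log2 fold changes of −0.42 ± 0.11, −0.34 ± 0.08, −0.47 ± 0.11 and −0.44 ± 0.11 and were called in 6, 7, 7 and 6 of 10. Estrogen replicate 1 was the lowest treated library for all 5 of these genes, and the list had 1 call without it. The count was 1 to 10 over the leave-one-out fits (also 1 without control replicate 3, 2 without estrogen replicate 5 and 4 without control replicate 2), and 0 when the 2 groups were fitted alone or without estrogen replicate 5 and control replicate 2. Of 27 genes of the tricarboxylic acid cycle and branched-chain amino acid breakdown 4 fell and 0 rose (16 at an unadjusted p under 0.05, all lower; 9 by DESeq2). The number that fell was 1 without estrogen replicate 1 or control replicate 3 or 4, 2 without estrogen replicate 5 or control replicate 2 or 5, and 0 without estrogen replicate 5 and control replicate 2. They included Dbt, the core of the branched-chain keto acid complex (110.3 ± 15.7 CPM with estrogen and 150.0 ± 17.6 CPM in controls, −0.44 ± 0.10), Idh2 (−0.31 ± 0.07, called in 7 of 10) and Sucla2 (−0.38 ± 0.11, called in 2 of 10). Sucla2 was not called with the GC and length correction (edgeR adjusted p = 0.0521).

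Cidea, a lipid droplet protein of brown fat, had 146, 236, 279, 233 and 248 CPM with estrogen, against 295, 391, 413, 382 and 351 CPM in controls, with no overlap (−0.68 ± 0.14, edgeR adjusted p = 0.0116), and was the one called of 11 brown and beige fat genes. Ucp1, the uncoupling protein of the same cells, had 638, 1304, 1448, 1008 and 1496 CPM with estrogen, against 1118, 1272, 1308, 1401 and 1463 CPM in controls, and was not called (−0.15 ± 0.18, edgeR adjusted p = 0.657). Adck3, a mitochondrial kinase-like protein of coenzyme Q synthesis, averaged 256 ± 55.9 CPM with estrogen and 471 ± 90.7 CPM in controls, with no overlap (−0.88 ± 0.16, edgeR adjusted p = 0.00639). Slc16a1, a lactate carrier, fell too (−0.41 ± 0.09, called in 9 of 10).

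The mitochondrial genome's own transcripts took a smaller share of the counts: 7.68 ± 0.87% (SD, n = 5) with estrogen and 9.76 ± 0.76% (SD, n = 5) in controls. The difference was −2.07 percentage points (exact permutation test over the 10 libraries, two-sided, p = 0.00794, the smallest it can give), and the groups did not overlap. Of 27 mitochondrial genes tested one by one, 7 fell and 0 rose, and 6 of the 7 were transfer RNA genes. The glycine transfer RNA gene mt-Tg had 0.501, 0.676, 0.857, 0.689 and 0.753 CPM with estrogen, against 3.75, 6.46, 5.71, 5.53 and 2.34 CPM in controls, all above the treated range (−2.77 ± 0.49, edgeR adjusted p = 0.00604). The libraries were made from poly-A enriched RNA, and transfer RNAs enter such libraries poorly. The nuclear entry Rn18s-rs5, an 18S ribosomal RNA sequence, moved the other way, at 0.331% to 0.736% of counts with estrogen and 0.143% to 0.273% in controls (1.58 ± 0.38, called in 6 of 10); ribosomal RNA copies are near-identical, so the entry may hold reads of others.

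Matrix genes rose and fell by member. Of 49 collagen and matrix genes 8 rose and 1 fell. The number that rose was 3 (without estrogen replicate 1 or control replicate 4) to 7 when 1 library was left out, and 3 without estrogen replicate 5 and control replicate 2. Eln, elastin, had 904, 971, 678, 622 and 710.4 CPM with estrogen, against 424, 344, 434, 398 and 457 CPM in controls, with no overlap (0.92 ± 0.14, edgeR adjusted p = 0.00173). Col16a1, a collagen that links fibrils, averaged 107 ± 16.8 CPM with estrogen and 64.0 ± 10.7 CPM in controls (0.74 ± 0.12), and Col7a1, the anchoring fibril collagen under epithelia, 20.8 ± 5.13 CPM and 7.98 ± 1.61 CPM (1.38 ± 0.27). The laminin gene Lama1 and the collagen gene Col9a2 rose by 2.61 ± 0.61 and 2.34 ± 0.54 (called in 8 and 7 of 10), and Col5a3 by 0.56 ± 0.16 (called in 1 of 10). Lgals1, galectin 1, rose by 0.40 ± 0.07. Col28a1, a collagen known from basement membranes around nerve cells, had 21.3, 20.1, 21.4, 23.5 and 18.1 CPM with estrogen, against 30.5, 30.9, 34.3, 35.6 and 29.5 CPM in controls, with no overlap (−0.62 ± 0.08, edgeR adjusted p = 0.000689). Aebp1, a collagen-binding protein of stromal cells, averaged 183 ± 27.6 CPM with estrogen and 278 ± 17.0 CPM in controls (−0.60 ± 0.09, edgeR adjusted p = 0.0014). Postn, periostin, fell (−0.40 ± 0.12) and was called in 1 of 10, and not with the GC and length correction (edgeR adjusted p = 0.283). Pdgfra, a fibroblast marker, was not called (−0.29 ± 0.11, edgeR adjusted p = 0.112).

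Of 19 endothelial genes 2 fell and 0 rose (1 higher and 7 lower at an unadjusted p under 0.05; 1 higher and 6 lower by DESeq2; 1 to 3 lower when 1 library was left out). Their summed level was 2288 to 2631 CPM with estrogen and 2618 to 3091 CPM in controls. Sox18, a transcription factor of vessel and lymph vessel growth, had 59.7, 50.02, 60.9, 63.7 and 65.7 CPM with estrogen, against 93.5, 92.5, 77.7, 104 and 96.2 CPM in controls, with no overlap (−0.63 ± 0.11, edgeR adjusted p = 0.00639). Tek, the angiopoietin receptor, fell (−0.28 ± 0.08, called in 2 of 10), and so did the coreceptors Nrp1 and Nrp2 (−0.23 ± 0.06 and −0.21 ± 0.05, called in 2 and 6 of 10). Tek and Nrp1 were not called with the GC and length correction (edgeR adjusted p = 0.0904 and 0.1). Pecam1, the general marker, was lower in all 5 treated libraries than in any control but did not pass (−0.23 ± 0.07, edgeR adjusted p = 0.0608; DESeq2 called it lower).

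Genes of immune cells were read by list, beside the 4.07% of all tested genes that rose and the 2.42% that fell. Of 18 T and NK cell genes 2 fell and 0 rose (3 lower at an unadjusted p under 0.05; 3 lower by DESeq2). Of 15 dendritic cell and MHC class II genes 1 fell and 0 rose (7 lower at an unadjusted p under 0.05; 3 lower by DESeq2). Of 11 mast cell and eosinophil genes 1 fell and 0 rose (6 lower at an unadjusted p under 0.05; 2 lower by DESeq2). Each of these counts was 0 without estrogen replicate 1. None of 17 macrophage genes was called by edgeR (1 lower at an unadjusted p under 0.05; none by DESeq2), and Adgre1, which encodes the surface marker F4/80, had 68.1, 78.7, 37.2, 25.3 and 35.0 CPM with estrogen, against 49.2, 53.1, 34.1, 31.0 and 69.0 CPM in controls (0.05 ± 0.33, edgeR adjusted p = 0.961). Ncr1, the activating receptor of natural killer cells, averaged 0.964 ± 0.143 CPM with estrogen and 2.21 ± 0.678 CPM in controls, with no overlap (−1.19 ± 0.29, called in 6 of 10). The granzyme gene Gzma, the dendritic cell integrin gene Itgax and the mast cell protease gene Cpa3 fell (−0.87 ± 0.23, −0.83 ± 0.22 and −0.60 ± 0.16) and were called in 3, 3 and 2 of 10; Cpa3 was not called with the GC and length correction (edgeR adjusted p = 0.0618). Of 34 proteases and inhibitors the collagenase Mmp13 (−1.92 ± 0.46), the stromelysin Mmp3 (−0.39 ± 0.11) and the macrophage elastase Mmp12 (−2.43 ± 0.71) fell. They were called in 8, 3 and 1 of 10, and 0 of them without estrogen replicate 1 or control replicate 2. Mmp12 was not called with the GC and length correction (edgeR adjusted p = 0.0617).

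Of 26 interferon-induced genes 1 fell and 0 rose (24 at an unadjusted p under 0.05, all lower; 10 by DESeq2), and the median log2 fold change was −1.45 with all libraries and −0.38 without control replicate 2. The one that fell was Ifit3b (−3.28 ± 0.93, called in 3 of 10), with 81.8 CPM in control replicate 2 and at most 4.46 CPM in the other controls, and without that library its edgeR adjusted p was 0.369. The guanylate binding protein genes Gbp5 and Gbp7, also induced by interferon and not on that list, fell. Gbp5 had 8.78, 8.79, 8.51, 12.0 and 10.8 CPM with estrogen, against 15.3, 55.4, 14.1, 14.0 and 13.8 CPM in controls (−1.20 ± 0.33, called in 6 of 10), and Gbp7 had 32.997, 34.4, 35.6, 36.6 and 39.0 CPM with estrogen, against 51.6, 151, 55.5, 48.9 and 42.0 CPM in controls (−0.96 ± 0.26, called in 4 of 10). Every control was above every treated library for both, and without control replicate 2 the edgeR adjusted p was 0.04 for Gbp5 and 0.0175 for Gbp7. Ifi203 also fell (−0.88 ± 0.23, called in 6 of 10, edgeR adjusted p = 0.0451 without that library). With the GC and length correction Gbp7 and Ifi203 were not called (edgeR adjusted p = 0.0512 and 0.0623).

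The following genes also fell. Nabp1, which binds single-stranded DNA, had 158, 163, 158, 168 and 213 CPM with estrogen, against 780.1, 537, 251.9, 418 and 249 CPM in controls, with no overlap (−1.38 ± 0.30, edgeR adjusted p = 0.0167, called in 9 of 10). Bhlhe40, a repressor in the clock, had 42.2, 98.1, 63.2, 48.4 and 63.3 CPM with estrogen, against 296, 50.2, 158, 196 and 193 CPM in controls, where replicate 2 lay in the treated range (−1.51 ± 0.36, called in 7 of 10). Gadd45a, a growth arrest gene, averaged 6.59 ± 1.63 CPM with estrogen and 14.7 ± 6.06 CPM in controls (−1.16 ± 0.24). Nfe2l2, the master regulator of antioxidant genes, averaged 93.8 ± 6.04 CPM with estrogen and 127 ± 10.8 CPM in controls, with no overlap (−0.44 ± 0.08, edgeR adjusted p = 0.00444). Of 35 antioxidant and detoxification genes 2 rose and 1 fell, beside 4.07% and 2.42% of all tested genes. Without estrogen replicate 5 and control replicate 2 it was 0 of either. None of 22 immediate early genes was called by edgeR (3 higher and 1 lower at an unadjusted p under 0.05; 1 higher by DESeq2). Of 18 clock genes 2 fell and 0 rose, Bhlhe40 among them (1 higher and 8 lower at an unadjusted p under 0.05; 3 lower by DESeq2; 0 to 3 lower when 1 library was left out).

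Transcripts best known from liver were among the rises. A list of plasma proteins was drawn up after the values had been seen, as were Serpina1b, Orm1 and Ahsg as examples, so its count supports nothing. Of 17 tested, 9 rose, 4 without estrogen replicate 5, 4 to 11 when any 1 library was left out, and 3 without estrogen replicate 5 and control replicate 2. Serpina1b, an antitrypsin, had 104, 61.9, 33.5, 36.4 and 64.2 CPM with estrogen, against 22.8, 22.2, 18.4, 21.8 and 21.9 CPM in controls, with no overlap (1.48 ± 0.24, edgeR adjusted p = 0.0036); close copies of this gene lie beside it and may share its reads. Orm1, orosomucoid, had 199.7, 184, 117, 155 and 159.5 CPM with estrogen, against 99.99, 80.7, 87.0, 107 and 108 CPM in controls, again with no overlap (0.76 ± 0.13, edgeR adjusted p = 0.00609). Others were high in estrogen replicate 5 alone. Ahsg, fetuin, which was not called with the GC and length correction, had 58.6 CPM there and at most 0.338 CPM in the other estrogen libraries, against at most 0.625 CPM in controls. Alb, albumin, had 485 CPM there and 51.1 to 94.4 CPM in the other estrogen libraries, against 42.5 to 59.6 CPM in controls.

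The 60 h values were set beside those at 84 h. There 5 other estrogen libraries were compared with 5 other controls, counted in another deposited table. The label numbers of all 5 estrogen libraries at 84 h also lie above those of all 5 controls at 84 h. Anything that goes with the number cannot be told apart from estrogen at 84 h either. A sign shared by 60 h and 84 h therefore does not separate estrogen from the number. The sign was the same at 84 h for 673 of the 702 genes that rose at 60 h and for 377 of the 417 that fell, beside 11808 of all 17242 genes with a value at both times. The median log2 fold change at 84 h was 0.79 for the first group and −0.19 for the second; both groups were chosen on the 60 h values, so a smaller value at the other time needs no difference between times. Of 17852 genes, 1 had an effect that differed between the times by edgeR's test of that difference (0.0056%; 1160 at an unadjusted p under 0.05, and 18 by DESeq2). That gene was Gm4876, an antisense transcript over Tes, with 12.7, 11.1, 10.7, 10.6 and 10.2 CPM with estrogen at 60 h, against 5.71, 5.79, 4.67, 6.19 and 5.37 CPM in controls, with no overlap (0.99 ± 0.14), and a log2 fold change of −0.18 ± 0.14 at 84 h.

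Pgr, Areg and Slc5a5 had log2 fold changes of 4.87 ± 0.60, 8.95 ± 1.20 and 5.45 ± 0.69 at 84 h, Cyp3a57 of 4.99 ± 0.64 and Il4ra of 1.29 ± 0.12. The effect of Eln at 84 h was 0.39 ± 0.13. Values within 2 SE of 0 at 84 h stood beside several of the 60 h calls, though edgeR called the difference for none of these genes: 0.29 ± 0.17 for Scd1, 0.21 ± 0.16 for Sox18, 0.03 ± 0.30 for Nabp1, 0.73 ± 0.40 for Bhlhe40, −0.01 ± 0.24 for Gadd45a, −0.13 ± 0.10 for Col28a1, −0.18 ± 0.25 for Errfi1 and 0.07 ± 0.36 for Rn18s-rs5. Mitosis genes had 1.29 ± 0.23 for Cdc20, 1.21 ± 0.21 for Plk1 and 1.21 ± 0.28 for Mki67 at 84 h.

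**Figure D5:**
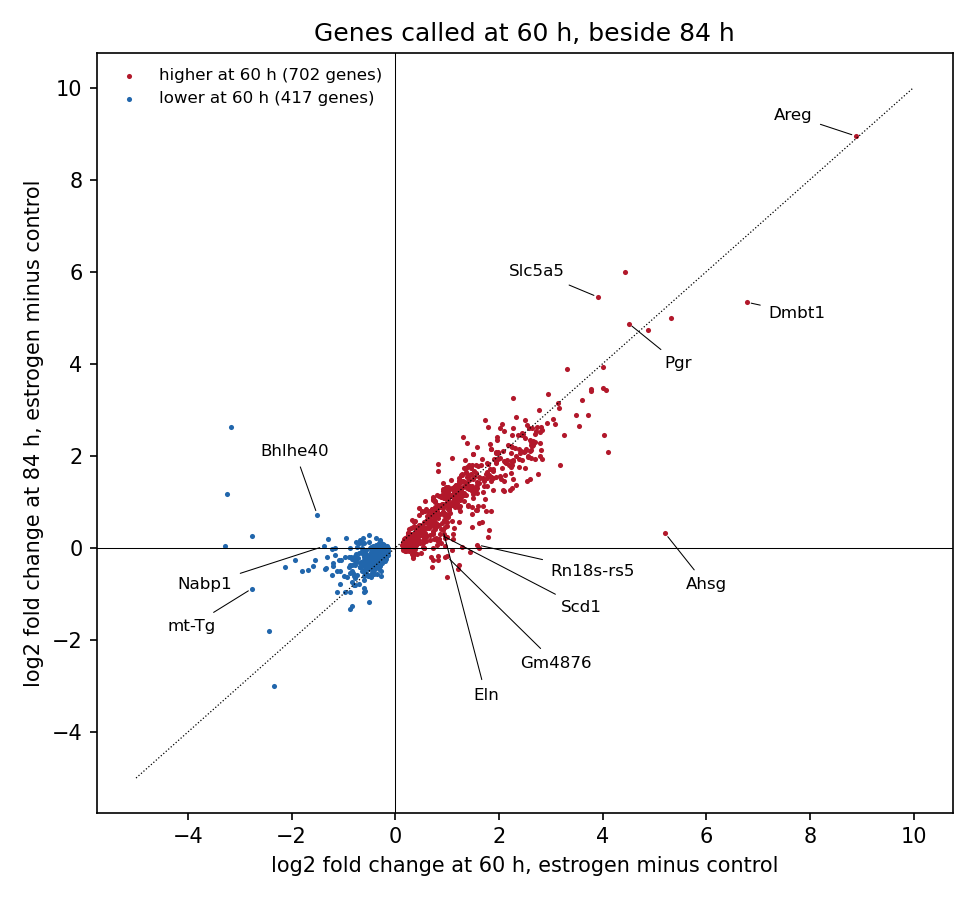
Log2 fold change at 84 h against that at 60 h, estrogen minus control, for the 702 genes that rose (red) and the 417 that fell (blue) at 60 h; the dotted line marks equal values. The 84 h values come from the fit of all 40 libraries and the 60 h values from the fit of the 4 groups of the 60 h table. Areg, Pgr and Slc5a5 lie far up at both times, and Gm4876, Scd1 and Nabp1 lie nearer to 0 at 84 h than at 60 h.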

How the data were processed

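RNA of mammary glands was sequenced from 5 estrogen and 5 control libraries at 60 h after poly-A enrichment with a stranded kit and 10 PCR cycles, per the labels' protocols. The authors deposited raw read counts per gene and, separately, RPKM values (reads scaled by gene length and library size). The aligner, counting tool and strand setting are named in no source used here; the submitters' processing notes name the mouse build GRCm38. Counts were fitted with edgeR 4.0.16 in R 4.3.3 (robust quasi-likelihood test, TMM scaling, genes kept by filterByExpr with a minimum count of 10 and a minimum total of 15), with the 4 groups of the same deposited table sharing the spread, and p-values were adjusted by Benjamini-Hochberg over all 17248 genes kept of 47729. The 84 h comparison and the difference between times both came from 1 such fit of all 40 libraries. Libraries held 29831097 to 40026800 counts, which makes counting error small beside the spread between libraries except in genes under 1 CPM; intervals cover counting error only. Alternatives used DESeq2 1.42.0, limma 3.58.1 on log2(RPKM + 0.1), other scalings and filters, and left out libraries; 3 were added after seeing the data: leaving out estrogen replicate 5 with control replicate 2, a correction for GC content and length, and its comparison on the same genes without correction. The fitting steps were tested on simulated counts. Named genes were those with the largest or most certain changes, up to 5 called members of each gene list in each direction and a panel given whether or not called; exceptions are marked as chosen after their values were seen, and some genes the rule names are not reported here. The comparison, the lists and the rule were chosen with earlier results of these data known. Overlapping genes on opposite strands and near-identical copies may share reads. Gene lengths and GC content came from GENCODE M21, promoter windows from RefSeq.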

Additional observations from a re-analysis of the deposited data

Results flagged for a closer look

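In 26 of 296 groups of 5 libraries, 1 library lay far from the other 4 for a gene named in the report. Independent, normally distributed values reach such a gap in about 1 of 20 groups. These are CPM values of chosen genes read in the same libraries, so that rate need not hold for them. Control replicate 1 was the high one for epithelial and division genes. It had 9.43 CPM of Krt8 (next 2.75), 13.2 CPM of Krt14 (next 1.73), 3.42 CPM of Tfap2c (next 1.11), 31.8 CPM of Mki67 (next 20.6) and 2.81 CPM of Chaf1b (next 2.26), and it was also the highest control for Gm16485 with 0.580 CPM (next 0.0976) and for Dmbt1 with 0.0305 CPM, a single read, where the others had 0.

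Control replicate 2, with its high interferon-induced genes, had 55.4 CPM of Gbp5 (next 15.3), 151 CPM of Gbp7 (next 55.5), 19.97 CPM of Ifi203 (next 7.78) and 81.8 CPM of Ifit3b (next 4.46). The same library was the highest control for the proteases Mmp13, with 3.26 CPM (next 1.08), and Mmp3, with 60.4 CPM (next 46.3), and for Il4ra, with 81.3 CPM (next 53.4), a gene that rose with estrogen in spite of it.

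Estrogen replicate 5 had 58.6 CPM of Ahsg (next 0.338), 485 CPM of Alb (next 94.4) and 213 CPM of Nabp1 (next 168), and the lowest Pdgfra of the treated libraries, 86.8 CPM (next 109.6). Estrogen replicate 1 was the lowest treated library for mitochondrial enzymes, with 322 CPM of Etfa (next 424), 159 CPM of Idh2 (next 195) and 349.9 CPM of Sucla2 (next 519). Estrogen replicate 3 was the lowest for Lgals1, with 545 CPM (next 652).

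Among controls, replicate 3 was low for Tuba1b, with 40.5 CPM (next 48.6), for Npr3, with 173 CPM (next 280.4), and for Serpina1b, with 18.4 CPM (next 21.8), and replicate 5 was high for Exo1, with 0.781 CPM (next 0.666).

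Gm4876 was the gene whose effect differed between the times by edgeR's test: its log2 fold change at 84 h minus that at 60 h was −1.18.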

How the results depend on the processing

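Against 1119 called genes (62.7% of them higher), DESeq2 called 1878, no filter on low counts left 593, limma on log2(RPKM + 1) gave 680, limma on log2(RPKM + 0.1) without a filter 378, and the 60 h groups fitted alone 742. Leaving out 1 library gave 316 to 1210 calls, and leaving out estrogen replicate 5 with control replicate 2 gave 222. RLE scaling, upper-quartile scaling, the stricter filter, limma on log2(RPKM + 0.1) with the filter and the GC and length correction stayed within 1.5 times of the main count, between 865 and 1208. For the difference between times DESeq2 called 18 genes in place of 1, and leaving out a library gave 1 or 2 (2 without control replicate 2 of the 60 h group). The fall of the mitochondrial share kept its direction and its call under every alternative run. Of 139 named genes that were called, all with the same direction unless given next, the number no longer past the threshold was 0 with DESeq2 (2 had no adjusted p), 3 with RLE scaling, 10 with upper-quartile scaling, 13 with the GC and length correction, 33 without a filter, 34 with the 60 h groups alone, 29 to 53 with limma, 13 to 64 when 1 library was left out and 84 without estrogen replicate 5 and control replicate 2. Among all named genes, the log2 fold change of 3 changed sign, and the cause was not tested. Adgre1, never called, was −0.0256, −0.01491 and −0.0256 with limma at the smaller and larger pseudocount and without a filter, and −0.19 to 0.22 when 1 library was left out. Ucp1, never called, was 0.00162 without estrogen replicate 1 and −0.27 without estrogen replicate 5 and control replicate 2, its lowest. Ahsg was −0.50 without estrogen replicate 5, −0.52 without it and control replicate 2, and up to 5.62 without another library. No paired analysis was possible because the labels give the libraries no replicate numbers that are shared between the groups. Depth limits genes under 1 CPM, where 84 rose and 12 fell of 2834.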
